A study of Sus scrofa with 40 samples.

Results

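LSM3, RTF1 and ZNF7, genes whose proteins work in the nucleus, were followed pig by pig in Longissimus muscle (LM). They are read by 3 of the 15198 gene probes of the array, CA779643.1_571 (LSM3), BQ600475.1_3366 (RTF1) and BP435831.1_1696 (ZNF7). The 3 probes were chosen by measured values of these same arrays, namely their lower log2 ratio in Basque pigs and their separate levels within a breed. Breed differences and levels are therefore given as a description, without a test. The question that the choice leaves to the data is which pigs were low for each gene, and whether they were the same pigs.

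LSM3 is one subunit of the LSm ring, a doughnut of small proteins that binds the uridine-rich end of U6 snRNA in the spliceosome and, in a related ring in the cytoplasm, the ends of mRNA about to be decapped. RTF1 works with the Paf1 complex, which travels with RNA polymerase II during elongation, and it promotes the ubiquitination of histone H2B. ZNF7 is a zinc finger protein of the C2H2 type with a KRAB domain, a family of DNA-binding proteins of which many repress transcription.

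The muscle came from 40 castrated male pigs, 20 Basque (B) and 20 Large White (LW), brought to a live weight of about 145 kg. In each breed 10 pigs were kept in conventional housing, indoors on slatted floor, and 10 in alternative housing, on bedding with access to the outdoors. The labels used here name neither age nor litter. The study's text gives B pigs as older than LW pigs at the same weight, and as fed alike although LW pigs have the larger appetite, so that breed, age and feeding cannot be told apart. According to the methods littermates were divided between the housing systems. Litter is not in the labels, so that the housing tests below treat the pigs as independent and do not compare littermates. Each pig had 1 array, on which its own RNA carried Cy3 and pooled RNA from the 40 pigs carried Cy5. The value used is the log2 ratio of Cy3 to Cy5 after background correction, with the median of the array subtracted, so that 0 is the median ratio of the array. No array carried the dyes in the opposite order, so that a dye bias of a probe shifts its ratio alike in every pig, and 0 is not the level of the pool for a given probe. Both breeds were present on each of the 7 slides, which were scanned on 3 days. For B pigs the array medians of Cy3 intensity spanned 130.2 to 158, and for LW pigs they spanned 127.6 to 165.4. The number of pigs limits the precision. Whole muscle was measured, so that fewer cells of a type and less RNA per cell cannot be told apart.

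On 3 arrays a few spots had a local background far above the spot itself. There were 5 such spots on the array of B alternative replicate 15, 7 on that of LW alternative replicate 18 and 1 on that of LW alternative replicate 15. With these spots in the fit, the background model of Cy3 on the first 2 arrays took a mean of -859.3 and -199.1 intensity units. Without them the means were 3.26 and 3.31, within the range of the other arrays. The 13 spots were left out for all values below, a choice made after seeing the data, and none of them was a spot of the 3 genes. The choice moved the values of B alternative replicate 15 in particular. Without these spots it read -1.31 for LSM3, -0.69 for RTF1 and 0.72 for ZNF7, and with them -0.29, -0.42 and 0.0096. Its series matrix values were -0.32, -0.22 and 0.28, from a column with a slope of only 0.28 on the processed signals of the array, against a median slope of 0.948. Leaving the spots out moved LW alternative replicate 18 from 1.13 to 1.38 for LSM3, from 0.77 to 0.70 for RTF1 and from 0.49 to 0.75 for ZNF7, so that the highest ZNF7 values of both breeds and the highest LSM3 value come from these 2 arrays. Over all tested probes the arrays then correlated with r between 0.21 and 0.826.

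LSM3 was lower in most B pigs than in most LW pigs. The 20 B pigs had log2 ratios from -1.53 to 0.16 with a median of -1.25, and the 20 LW pigs from -1.22 to 1.38 with a median of 0.83. Means were -1.01 ± 0.53 and 0.54 ± 0.74 (SD, n = 20 each). In the limma model with breed, housing, their interaction and slide, B pigs were lower by -1.59 (SE 0.20). The ranges overlapped, and 9 B pigs lay inside the range of the LW pigs. The 4 highest B pigs lay between -0.33 and 0.16, and the 3 lowest LW pigs between -1.22 and -0.71.

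RTF1 and ZNF7 were also lower in B pigs. RTF1 spanned -3.00 to 0.37 in B pigs, with a median of -0.66, and -0.50 to 0.70 in LW pigs, with a median of 0.13, and the modelled difference was -0.91 (SE 0.22). ZNF7 spanned -1.92 to 0.72 in B pigs, with a median of -0.33, and -0.045 to 0.75 in LW pigs, with a median of 0.30, and here the model gave -0.96 (SE 0.20). For each of these genes 7 B pigs lay inside the range of the LW pigs, and a few B pigs lay far below all others. Means were -0.84 ± 0.95 and 0.16 ± 0.29 for RTF1, and -0.58 ± 0.97 and 0.35 ± 0.25 for ZNF7 (SD, n = 20 each, B before LW). Of the B spots, 3 of RTF1 and 7 of ZNF7 were not well above background. The size of the differences changed with the processing, and the cause was not tested. With Agilent's processed signals the differences were -2.09, -1.43 and -2.32 for LSM3, RTF1 and ZNF7, and with the series matrix -2.00, -1.34 and -1.80, so that the 3 genes have no settled order. As background, 11.0% of the 12222 tested probes (1340) were lower in B pigs at an adjusted P value under 0.05, which says nothing of the 3 probes because this contrast chose them. Within single slides the breed difference ran from -2.12 to -0.61 for LSM3, from -1.19 to 0.034 for RTF1 and from -2.41 to -0.011 for ZNF7. Slide 2, with 1 pig of each breed, gave the value of 0.034 for RTF1 and those of -0.61 for LSM3 and -2.41 for ZNF7.

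**Figure D1:**
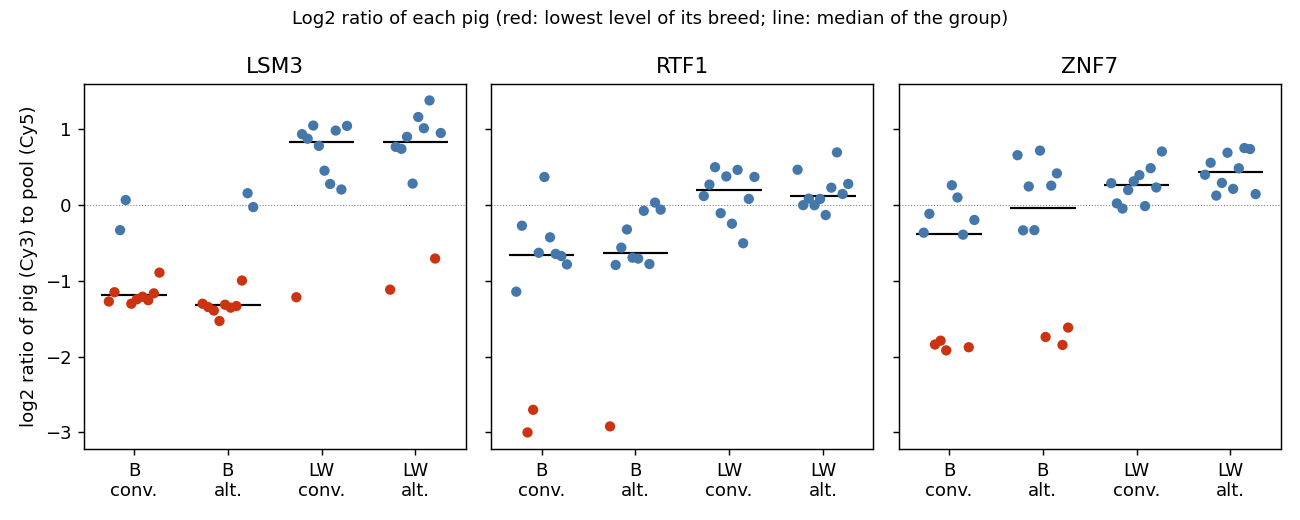
Log2 ratio of pig to pool for each of 40 pigs (y axis) in the 4 groups of 10 (x axis; conv. is conventional and alt. alternative housing), with 1 panel per gene. Red points are pigs in the lowest level of their breed and lines are group medians; for RTF1, 3 B pigs lie between -3.00 and -2.70, and for ZNF7, 7 B pigs lie between -1.92 and -1.62.

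Levels were described in each breed with Gaussian mixtures of equal variance, in which more than 1 level needed a gain of at least 10 in the Bayesian information criterion (BIC) and at least 3 pigs per level. Since the probes were chosen for separate levels, this rule sorts the pigs and does not test that levels exist. A pig is called low for a gene when it lies in the lowest level of a breed with more than 1 level. These levels hold for log2 ratios without a slide correction. When the slide effect of the model was subtracted, 1 level and 0 low pigs were left for each gene in each breed, so that every level below depends on this setting. The subtraction does not alter differences between pigs of the same slide, which are given below with the slides.

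For LSM3, most B pigs were in the lower of 2 levels. It held 16 B pigs between -1.53 and -0.89, 8 from each housing system. The upper level held B conventional replicates 3 and 4 and B alternative replicates 19 and 20, between -0.33 and 0.16. LW pigs had 3 levels. The lowest held LW conventional replicate 1 and LW alternative replicates 11 and 19, between -1.22 and -0.71, the middle one held 4 pigs between 0.21 and 0.46, and the highest held 13 pigs between 0.74 and 1.38. The middle and highest levels lay only 0.29 apart, and LW pigs had 2 levels with the processed signals and with the series matrix, and 1 level with unequal variances.

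For RTF1, the partner of the Paf1 complex, being low was rare. The lower of 2 levels in B pigs held B conventional replicates 3 and 4 and B alternative replicate 11, between -3.00 and -2.70. The 17 other B pigs lay between -1.14 and 0.37, with a gap of 1.56 between the levels. The size of this gap depends on the processing. With the series matrix the 3 low pigs read -5.06 to -4.78 and the next B pig -1.04. The 20 LW pigs formed 1 level.

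ZNF7 had 3 levels in B pigs and 1 level in LW pigs. The lowest held 7 B pigs between -1.92 and -1.62, namely conventional replicates 3, 4, 5 and 9 and alternative replicates 16, 19 and 20. The others followed after a gap of 1.23, with 6 pigs between -0.39 and -0.11 and 7 between 0.10 and 0.72. With the series matrix the lowest 7 read -3.81 to -3.59 and the next B pig -0.49. The size of this gap therefore depends on the processing. The upper 2 levels, 0.22 apart, reached over the range of the LW pigs and somewhat below it.

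Low B pigs were shared in part between pairs of genes. The 3 pigs low for RTF1 and 5 of the 7 low for ZNF7 were low for a second gene, whereas 12 of the 16 low for LSM3 were low for that gene alone. These counts depend on the sizes of the lists, since 16 of the 20 B pigs were low for LSM3, 7 for ZNF7 and 3 for RTF1. Of the 20 B pigs, 14 were low for 1 gene, 6 for 2 genes, and 0 for all 3 genes or for none. With low defined as a log2 ratio under -1 instead, B conventional replicate 10 and B alternative replicate 18 were low for none. Low for both RTF1 and ZNF7 were B conventional replicates 3 and 4, which is 66.7% of the 3 pigs low for RTF1 and 28.6% of the 7 low for ZNF7. Low for both LSM3 and RTF1 was B alternative replicate 11, 6.25% of the 16 pigs low for LSM3 and 33.3% of those low for RTF1. Low for both LSM3 and ZNF7 were 3 pigs, B conventional replicates 5 and 9 and B alternative replicate 16, which is 18.8% and 42.9% of the lists. Pigs low for RTF1 or ZNF7 were thus less often low for LSM3 than B pigs as a whole. Those low for RTF1 were more often low for ZNF7 than B pigs as a whole, but they are only 3 pigs. Neither was tested.

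Seen from the other side, the 4 B pigs in the upper level of LSM3 were all low for ZNF7, and 2 of them were also low for RTF1. B alternative replicate 15, not low for ZNF7, was a 5th pig outside the low level of LSM3 with the bright-background spots in the fit and with the series matrix. It stayed in the low level with Agilent's processed signals, with no background correction and with Cy3 intensity after quantile normalization, and its Cy3 intensity before that was 145.9, where the low level has a median of 146. With unequal variances 7 B pigs were outside that level, and 4 of these 7 were low for ZNF7. B conventional replicate 3 read -0.33 for LSM3, -3.00 for RTF1 and -1.84 for ZNF7. B alternative replicate 20 read -0.03, -0.06 and -1.62 in the same order. This pattern was noticed after the values were seen and has no test. With the mean of each breed subtracted, r over the 40 pigs was -0.346 for LSM3 and ZNF7, -0.152 for LSM3 and RTF1 and 0.138 for RTF1 and ZNF7. These values are descriptions, since the pigs fall into levels.

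**Figure D2:**
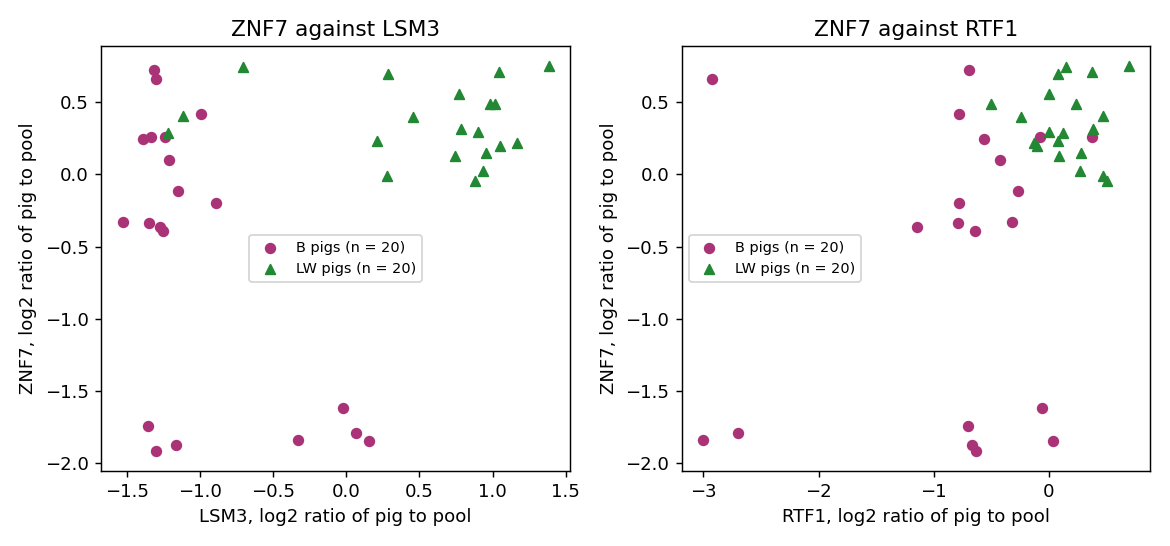
Log2 ratio to the pool of ZNF7 (y axis) against LSM3 (left) and RTF1 (right) for 20 B pigs (circles) and 20 LW pigs (triangles), each point 1 pig. The 4 B pigs with LSM3 between -0.33 and 0.16 are among the 7 with ZNF7 under -1, and 2 of the 3 B pigs at the lowest RTF1 level are also among these 7.

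The spots show how low the low pigs were. For RTF1 the Cy3 intensity was 59.8, 64.2 and 75.4 in the 3 low pigs, against 208 to 675 in the 17 other B pigs and 384 to 909 in LW pigs. For ZNF7 it was 51.5 to 59.5 in the 7 low pigs (median 54.4), 132 to 346 in the other B pigs and 185 to 401 in LW pigs. The 87 negative control spots had medians between 48.7 and 56.7 per array. All 10 of these low spots were not well above background, and none exceeded the highest negative control of its array. The 7 spots of ZNF7 also lay under the 95th percentile of these controls, whereas 2 of the 3 of RTF1 lay above it, at 75.4 against 74.3 and 59.8 against 55.8. The log2 ratios of these spots are therefore limited by the background.

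LSM3 differed in this respect. In the 16 low B pigs its Cy3 intensity was 133 to 169 (median 146), and in the 3 low LW pigs it was 168 to 210. In the upper B level it was 272 to 436 and in the highest LW level 589 to 781. The probe was well above background on all 40 arrays, so the low pigs for LSM3 still gave a measured signal. RTF1 was well above background in 8 of 10 B conventional, 9 of 10 B alternative and all LW pigs, and ZNF7 in 6, 7 and all, respectively. No spot of the 3 probes was marked as an outlier or as saturated.

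The pool channel of the same spots stayed nearly level. Cy5 intensity was 509 to 827 for LSM3, 587 to 1240 for RTF1 and 260 to 493 for ZNF7 over the 40 arrays. On the log2 scale, with the median of each array and channel subtracted, the SD over the 40 arrays was 1.00 in Cy3 and 0.11 in Cy5 for LSM3, 0.87 and 0.16 for RTF1, and 0.88 and 0.13 for ZNF7. The median SD of Cy5 over all tested probes was 0.14. In the low pigs the Cy5 intensity was 917 to 945 for RTF1 and 328 to 408 for ZNF7, inside the range of the other arrays.

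**Figure D3:**
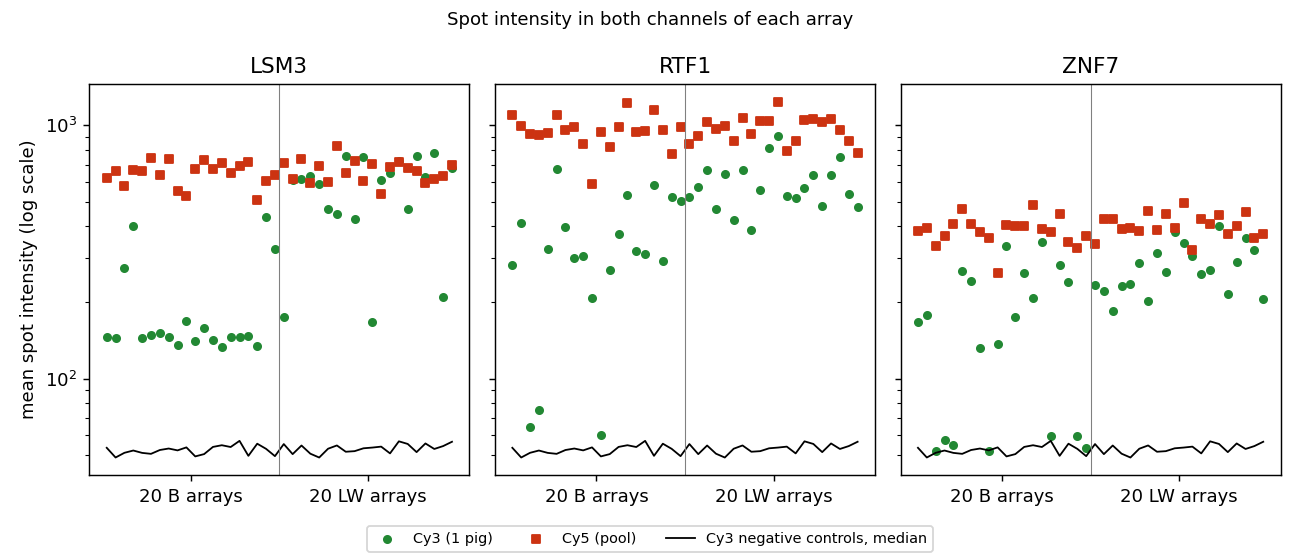
Mean spot intensity (y axis, log scale) of the 3 probes on each of 40 arrays (x axis, B pigs left and LW pigs right), with Cy3 as circles, Cy5 as squares and the median of the Cy3 negative controls as a line. Cy5 stays between 260 and 1240 on every array, whereas Cy3 of RTF1 in 3 B pigs and of ZNF7 in 7 B pigs lies at 51.5 to 75.4.

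The low pigs of each gene lay on more than 1 slide, though unevenly. Those low for ZNF7 lay on 5 slides and 2 scan days, with 3 of the 7 on slide 6, and 4 of the 5 slides also held B pigs that were not low. Those low for RTF1 lay on 3 slides, each with other B pigs. For LSM3 the low B pigs lay on 6 slides, of which only 2 also held a B pig of the upper level. As given above, no low pigs were left once the slide effect was subtracted. Within a slide this subtraction changes no difference. There the low B pigs lie below the others by definition, so that their order is no check on the levels. The closest low and other B pig of 1 slide read -2.70 and -0.79 for RTF1 (slide 4). They read -1.74 and -0.39 for ZNF7 (slide 3), and -1.165 and -0.33 for LSM3 (slide 6). The arrays of the pigs low for ZNF7 had 11056 to 13441 probes well above background and those of the pigs low for RTF1 had 12355 to 12979, against 10447 to 13441 over all B pigs. All arrays of the pigs low for RTF1 thus lay above the B median of 11996.5, and what this means for their levels was not tested.

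Housing did not enter the choice of the probes and was tested. LSM3 had a median of -1.19 in B conventional and -1.32 in B alternative pigs, and of 0.83 and 0.84 in LW pigs. The modelled difference, alternative minus conventional, was -0.12 (SE 0.28, adjusted P = 0.999) in B pigs and -0.10 (SE 0.29, adjusted P = 1) in LW pigs. Housing groups of LSM3 overlapped almost fully in both breeds.

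RTF1 had medians of -0.66 in B conventional and -0.63 in B alternative pigs, which the model put at 0.29 (SE 0.31, adjusted P = 0.999), and medians of 0.20 and 0.12 in LW pigs, modelled as -0.050 (SE 0.32, adjusted P = 1). ZNF7 had medians of -0.38 and -0.04 in B pigs and of 0.26 and 0.44 in LW pigs, with differences of 0.55 (SE 0.29, adjusted P = 0.999) and 0.15 (SE 0.30, adjusted P = 1). The ZNF7 value in B pigs had the smallest unadjusted P value of the 3 genes, 0.0641 in limma. The model takes 1 spread per probe for both breeds. In B and LW pigs the SD was 0.95 and 0.29 for RTF1, and 0.97 and 0.25 for ZNF7. For these 2 genes the housing standard errors and P values are therefore too small in B pigs and too large in LW pigs. Low pigs came from both housing systems, 4 conventional and 3 alternative for ZNF7, and 2 and 1 for RTF1. The interaction of breed and housing was -0.022 (SE 0.39), 0.34 (SE 0.44) and 0.40 (SE 0.41) for LSM3, RTF1 and ZNF7, each with an adjusted P of 1 in limma. None of the 3 genes passed the threshold for housing, and neither did any other probe. In limma 0 of 12222 probes (0%) were called for housing in B pigs, 0 in LW pigs and 0 for the interaction, with 335, 444 and 326 probes at an unadjusted P under 0.05. The two-step analysis of variance also called 0, with 333, 504 and 360 probes at an unadjusted P under 0.05. The standard errors were 0.28 to 0.32 without litter in the model. Small housing differences of these genes would not have been detectable in this model. Nor was one of 0.55, that of ZNF7 in B pigs, called after adjustment over all tested probes (limma, adjusted P = 0.999).

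For each gene the 3 tested probes most like it were sought by Pearson r of the log2 ratio minus the mean of the breed, over 40 pigs, as a description. The lists of RTF1 and LSM3 depend on the measure, since with Spearman rho 0 of the 3 probes of RTF1, and with residuals of the whole model 0 of those of LSM3, were found again. For LSM3 the 3 were that of GRAMD3, CB286395.1_1727 (r = 0.576), BQ603898.1_577 (r = 0.553) and BX664984.1_1308 (r = 0.545), of which the latter 2 have no symbol here. For RTF1 they were CB287866.1_1275 (r = 0.773), CF787429.1_1243 (r = 0.695) and BX924860.1_471 (r = 0.638), all without a symbol. Within B pigs their r was 0.831, 0.828 and 0.783, and within LW pigs 0.719, 0.45 and 0.173, and 3 of the B pigs had RTF1 spots not well above background. For ZNF7 they were BP439707.1_1041 (r = 0.676, but 0.81 within B and -0.457 within LW pigs), the probe of ZNF251, BQ598547.1_974 (r = 0.619), and CF363859.1_301 (r = 0.608).

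ZNF251, another C2H2 zinc finger gene, is a near neighbour of ZNF7. In the pig assembly Sscrofa11.1 the order along chromosome 4 is ZNF7, COMMD5, LOC102158405 and ZNF251. The log2 ratio of ZNF251 ran from -1.06 to -0.15 in B pigs, and its r with ZNF7 was 0.70 within the 20 B pigs and 0.059 within the 20 LW pigs. The r within B pigs includes the 7 ZNF7 spots not well above background, as do those of the other probes most like ZNF7. LSM3 stands next to XPC on chromosome 13, and RTF1 lies between ITPKA and NDUFAF1 on chromosome 1.

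Few genes that work with these 3 could be named. The scanner output names no gene, and the probe column of the study's list of genes higher in B pigs was not used for names. Symbols came only from the probe column of its list of genes higher in LW pigs, which was chosen on these samples, so that the direction of its genes is not independent evidence. Of the U6 and LSm genes only LSM3 itself was named, and of the genes of mRNA decapping 0. Of the Paf1 complex and RNA polymerase II elongation, RTF1 and POLR2B, the second largest subunit of the polymerase, were named. Both probes of POLR2B were lower in B pigs, by -0.36 (SE 0.086) and -0.39 (SE 0.094). Of the ZNF family 8 genes were named with 11 probes. Without ZNF7, chosen by the breed contrast, 7 of the 10 probes passed the threshold, lower in B pigs, against 11.0% of all tested probes. Family members that were higher in B pigs could not be named from this list, so that neither this count nor the median of the 11 probes (-0.25, against 0.011 over all tested probes) says anything of the family. ZNF251 differed by -0.50 (SE 0.077), ZNF608 by -0.38 (SE 0.070) and ZNF274 by -0.25 (SE 0.044). The study's text gives ZNF410 and ZNF24, whose probes were not named here, as higher in B pigs. For housing 0 of the probes of these lists passed the threshold in either breed.

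Of the 12 skeletal muscle markers 3 were named, MYH1, ACTA1 and ATP2A1, and each was well above background on all 40 arrays. Their r with the 3 genes, breed means subtracted, lay between -0.284 and 0.139. Of the fibroblast markers only COL1A2 was named, with 2 probes whose r lay between -0.203 and -0.0667. The breed difference of MYH1 was -0.61 (SE 0.14), of ACTA1 -0.24 (SE 0.15), of ATP2A1 -0.23 (SE 0.091) and of the COL1A2 probes -0.50 (SE 0.17) and -0.18 (SE 0.070), and these genes too came from the list chosen on these samples. Markers of adipocytes, endothelium, leukocytes and erythrocytes were not named here, and their part in the levels was not tested.

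The 60-base probes are shown because each level rests on the binding of 1 such sequence. They are given from 5′ to 3′ in lower case as the array design in the scanner output holds them, and no other probe of the array came from the same contig as any of them.
LSM3, CA779643.1_571: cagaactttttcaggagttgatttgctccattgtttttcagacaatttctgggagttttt
RTF1, BQ600475.1_3366: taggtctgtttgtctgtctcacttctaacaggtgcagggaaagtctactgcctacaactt
ZNF7, BP435831.1_1696: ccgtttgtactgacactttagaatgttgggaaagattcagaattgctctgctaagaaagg
Of the 60 bases 21, 27 and 24 were G or C. The longest run that any of them shared with another of the 15197 gene probes, on either strand, was 13 bases. Since most probes have no symbol here, whether another probe of the array reads the same genes was not tested.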

How the data were processed

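Total RNA of LM from 40 pigs was measured on 40 Agilent arrays. The authors deposited the scanner output of Agilent Feature Extraction, that is, the mean intensity and local background of each spot before normalization, its marks for outlier, saturated and well above background spots, and processed signals, intensities to which the software has applied its background and dye corrections. A series matrix deposited by the authors holds log2 ratios, for which the submitters' processing notes name limma. These log2 values followed the processed signals with the direction of pig over pool (median r = 0.994 over the arrays, median slope 0.948), with column medians between -0.0148 and 0.0261. Correlation and slope were lower for B alternative replicate 15 (r = 0.681, slope 0.28) and LW alternative replicate 18 (r = 0.839, slope 0.464), whose deposited values are thus compressed. What was done to these 2 columns is unknown.

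The normexp method (offset 50) of limma 3.58.1, run in R 4.3.3, removed the background. Spots more than 50 intensity units below their local background in either channel (13 spots) were left out, a departure chosen after seeing the data. The log2 ratio of Cy3 to Cy5 minus the array median was used, without control spots and 2396 outlier spots, but with saturated ones. Tests covered the 12222 probes whose Cy3 signal was well above background in 10 or more pigs of either breed. The model held breed, housing, their interaction and slide, with Benjamini-Hochberg adjustment over all tested probes and a threshold of 0.05. Levels were found with mclust 6.1.1. Programs were tested on simulated data.

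The members and lists were chosen with earlier results of these data known. Named genes are the 3 probes, other probes of their contigs, the 3 probes most like each, and the genes of 4 lists. Cell type markers and neighbours on the chromosome are also named. The probe column of the study's list of genes higher in B pigs was not used for names. Alternatives covered background correction, normalization, the deposited log2 values, Cy3 alone, outlier spots, slide, array weights, the replicate number, the filter on dim probes, the definition of levels and the measure of likeness.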

Additional observations from a re-analysis of the deposited data

Results flagged for a closer look

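In 2 of the 12 groups of 10 pigs examined (4 groups for each of 3 genes), 1 pig stood far below the rest of its group. For LSM3, LW conventional replicate 1 had a log2 ratio of -1.22, whereas the other 9 pigs of the group lay at 0.21 or above. For RTF1, B alternative replicate 11 had -2.92, whereas the others of its group lay at -0.79 or above. Chance alone flags about 1 in 20 groups, but the 3 probes were chosen for separate levels within a breed and both pigs are among the low pigs of those levels, so that the number flagged is not evidence of a pattern. Groups with 2 or more low pigs are not found in this way, as in RTF1 of B conventional pigs, where 2 pigs were low.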

How the results depend on the processing

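The breed difference kept its sign for the 3 genes under every alternative except 1, RTF1 within slide 2 (0.034, 1 pig of each breed). For LSM3 it was smaller within slide 2 (-0.61) and slide 4 (-0.75). For ZNF7 it was -2.32 with Agilent's processed signals and -1.80 with the series matrix, -2.41 within slide 2 and -0.011 within slide 7. The cause was not tested.

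No housing difference and no interaction passed the threshold under any alternative. Values near 0 changed sign. Housing in LW pigs for RTF1 was 0.052 without a slide term, 0.019 with slide as a random block and 0.052 in the two-step analysis. The interaction for LSM3 was 0.016 with loess, 0.18 with the series matrix, 0.067 with Cy3 intensity, 0.058 with array weights, 0.097 with normexp over all spots and 0.056 without the 2 arrays.

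With the replicate number as a block (replicate block), the breed difference was -1.64, -0.85 and -0.96 for LSM3, RTF1 and ZNF7, and the interaction for LSM3 was 0.14. The numbers share only a label, since 3 of 20 same-numbered pairs had a correlation over 0.1 and 1 B pig correlated best with its own number. Housing could not be estimated with this block, in which the number is nested. The block called 3047 probes for breed, compared with 3517 in the model used and 2597 with normexp over all spots.

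Subtracting the slide effect of the model left 1 level and 0 low pigs in B pigs for each gene and in LW pigs for LSM3. Differences between pigs of the same slide, given above for B pigs, are not altered by it. For LSM3 the closest low and other LW pig of 1 slide read -0.71 and 0.46 (slide 4). That low pigs lie below the others of their slide follows from the definition of low. Each slide effect rests on 2 to 7 pigs, the low ones included. In LW pigs LSM3 had 1 level and 0 low pigs with unequal variances, and 2 levels with 3 low pigs with the processed signals and the series matrix. The low pigs for RTF1 (3) and ZNF7 (7) were the same pigs under the other settings of the levels. For LSM3, B alternative replicate 15 left the low level with the series matrix and with normexp over all spots (15 low pigs each), and with unequal variances the level with the lowest mean held 13 B pigs but not B alternative replicate 14, which had the lowest value (-1.53). With low defined as a log2 ratio under -1, 14 B pigs were low for LSM3 and 4 for RTF1, and 2 of the latter for LSM3 as well. With Spearman rho 0 of the 3 probes most like RTF1 were found again, and with residuals of the whole model 0 of those most like LSM3. Normexp over all spots and leaving out the 2 arrays were chosen after seeing the data. The two-step analysis was planned for the breed difference, but not for housing or the interaction. Signal over background limits the depth of the low levels of RTF1 and ZNF7.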
